A study of Danio rerio with 14 samples.

Results

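The data described here are the 7-day part of a zebrafish bulk RNA-seq series on forced expression of *il11a*, which encodes interleukin 11. They were chosen by time point alone and comprise 6 of the 14 libraries in the series, 3 from *il11a*OE hearts and 3 from control hearts. The *il11a*OE fish carried actb2:loxp-BFP-stop-loxp-il11a together with cmlc2:creER, while the control fish were CreER-negative littermates with the same loxP transgene only. Both groups were uninjured adults of the outbred Ekkwill strain, were bathed in 5 µM tamoxifen for 24 h, and were sampled 7 days post treatment (dpt). Because the cmlc2 promoter drives CreER in cardiomyocytes, the stop cassette is removed in those cells, and the ubiquitous actb2 promoter then drives *il11a* there. Each library came from a pool of hearts, polyadenylated RNA was sequenced, and read counts do not separate transgene from endogenous *il11a* transcripts. Cell cycle genes, JAK/STAT feedback genes and contraction genes are left aside here, and the comparison asks which other classes of genes rose or fell across the whole transcriptome.

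Interleukin 11 is a secreted cytokine of the interleukin 6 family that binds its own receptor together with the shared subunit gp130, and signals mainly through JAK kinases and STAT3. In the zebrafish heart this pathway is known for its place in regeneration after injury, and in mammals it is also known for acting on fibroblasts and matrix. An adult heart of this species holds cardiomyocytes, which live largely on mitochondrial oxidation of fatty acids, besides epicardium, endothelium, fibroblasts, mural cells and leukocytes.

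The forced gene itself was checked first. *il11a* stood at 386, 325 and 369.8 CPM (counts scaled to the size of each library) in the 3 *il11a*OE libraries, against 47.3, 41.6 and 53.7 CPM in the 3 control libraries, so every library matched its label (log2 fold change 2.92 ± 0.13 SE, edgeR adjusted p = 5.26e-05). CPM values given throughout were scaled with edgeR's trimmed mean of M values (TMM) factors, and fold changes are *il11a*OE over control.

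Gene-assigned fragments numbered 61691132 to 80703699 in the *il11a*OE libraries and 63302651 to 73919890 in the control libraries. The first principal component took 64.8% of the variance and separated the groups, and the second, with 15.7%, set control replicate 2 apart. That library held transcripts of other tissues: 10 genes of skin and scale epithelium summed to 2017 CPM there, against 4.12 to 28.6 CPM in the other 5 libraries. Likewise 8 genes of fast skeletal muscle summed to 1226 CPM in control replicate 2, against 4 to 12.3 CPM elsewhere. Control replicate 3 held thyroid transcripts, with 2 thyroid genes at 499 CPM, against 0.424 to 1.53 CPM in the other libraries. These marker genes were picked after the libraries had been seen. In control replicate 2, 514 genes lay more than 2-fold above the mean of the other 2 control libraries where those were within 2-fold of each other. Of these genes, 34 were called lower and 11 higher in *il11a*OE hearts. Both are smaller shares than the 17.1% and 20.2% of all tested genes called lower and higher. However, these genes were picked for a wide spread among the control libraries, which makes a call less likely. The shares therefore cannot show how many calls that library added. Without control replicate 2, 32 of those 514 genes were called lower. Values that rest on this library are therefore given with and without it.

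**Figure D1:**
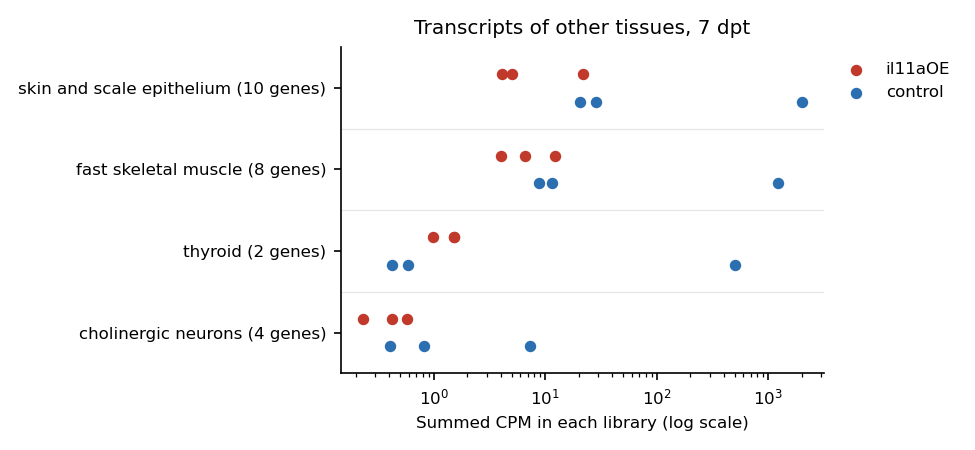
Summed CPM of marker genes of 4 other tissues (rows: 10 skin and scale genes, 8 fast skeletal muscle genes, 2 thyroid genes and 4 cholinergic neuron genes) in each library, on a log scale. Red points are the 3 *il11a*OE libraries and blue points the 3 control libraries. Control replicate 2 lies at 2017 CPM for skin and 1226 CPM for fast muscle, and control replicate 3 at 499 CPM for thyroid, while the other libraries lie far below.

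Of 19647 genes with enough reads to test, 3961 (20.2%) were higher and 3357 (17.1%) lower in *il11a*OE hearts at an adjusted p under 0.05 in edgeR's quasi-likelihood test with Benjamini-Hochberg adjustment. More than 4-fold changes were mostly rises: 829 genes (4.22%) were higher and 243 (1.24%) lower past both limits. In CPM, all 3 *il11a*OE libraries lay above all 3 control libraries for 5542 genes (28.2%) and below them for 4784 (24.3%). The median log2 fold change over all tested genes was 0.015. This balance rests on the TMM factors, which were 1.08 to 1.17 in *il11a*OE libraries and 0.86 to 0.91 in control libraries. Scaled by library totals alone, the median of all genes became 0.35, with 7407 genes higher and 1538 lower, so the share of calls that were higher was 82.8% in place of 54.1%. All class values below are to be read against that common shift, and a class is named as changing direction where the scaling turned it. In bulk tissue, fewer cells of a type and less RNA per cell cannot be told apart.

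**Figure D2:**
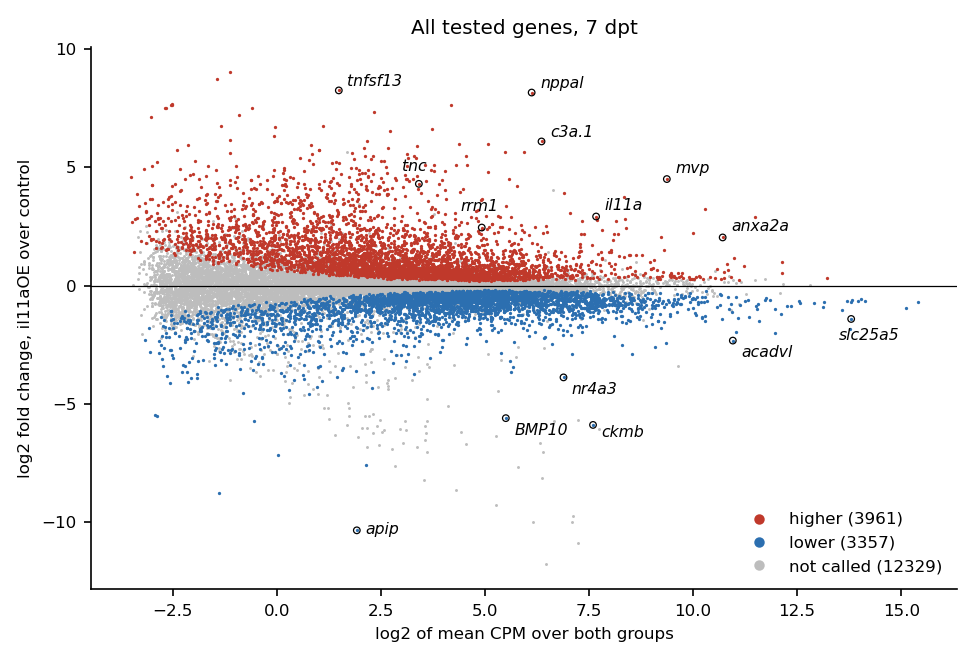
Log2 fold change (*il11a*OE over control, vertical axis) against the log2 of the mean CPM over both groups (horizontal axis) for the 19647 tested genes. Red points are the 3961 genes called higher, blue points the 3357 called lower and grey points the rest, with selected genes named. *tnfsf13* lies at 8.26 and *apip* at -10.36, and of the 51 grey points below -5, 50 have their highest CPM in control replicate 2.

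The largest rise of a named gene with at least 5 CPM was that of *tnfsf13*, the TNF-family ligand APRIL, which in mammals acts on B and plasma cells. It had 557, 378 and 452 counts in *il11a*OE hearts, against 1, 2 and 0 counts in control hearts, and was thus at least 113-fold higher when set against a floor of 3 counts per library (edgeR adjusted p = 9.86e-05). *nppal*, a natriuretic peptide-like gene, stood at 188, 105 and 125 CPM in *il11a*OE hearts, against 1.05, 0.121 and 0.25 CPM in control hearts (log2 fold change 8.17 ± 0.82 SE, edgeR adjusted p = 0.00127). Complement component *c3a.1* reached 199.96, 119 and 167 CPM, against 1.79, 3.07 and 2.24 CPM in control hearts (log2 fold change 6.10 ± 0.31 SE, edgeR adjusted p = 8.55e-05). For all 3 genes the groups were far apart, but genes whose groups overlapped had been left out of this ranking. *PAMR1*, named for a peptidase linked to muscle regeneration, rose in the same range (log2 fold change 6.64 ± 0.39 SE, edgeR adjusted p = 0.00013), but its exons partly overlap those of *fjx1* on the opposite strand, and reads from the shared stretch cannot be told apart. The remaining genes among the 10 largest rises were the cell division genes *hmmr* and *prc1b* and 4 with clone-based names, of which *si:ch211-214j24.14* was highest with 7.64 on the log2 scale.

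Among falls, *apip*, an enzyme of the methionine salvage pathway, was all but absent. It had 0, 0 and 1 counts in *il11a*OE hearts, against 601, 299 and 488 counts in control hearts, which is at least 204-fold lower against the same floor (edgeR adjusted p = 9.07e-05). *BMP10*, a cardiac ligand of the TGF-beta family annotated as ENSDARG00000109233, stood at 1.08, 2.08 and 2.29 CPM in *il11a*OE hearts, against 94.8, 93.7 and 78.1 CPM in control hearts (log2 fold change -5.61 ± 0.31 SE, edgeR adjusted p = 0.000112). The orphan nuclear receptor *nr4a3* fell to 21.7, 13.9 and 9.42 CPM, against 237, 249 and 180.0 CPM in control hearts (log2 fold change -3.89 ± 0.34 SE, edgeR adjusted p = 0.00054). Myostatin *mstnb*, a growth inhibitor of muscle, fell to 0.332, 0.406 and 0.32 CPM, against 4.78, 6.12 and 4.47 CPM (log2 fold change -3.86 ± 0.21 SE, edgeR adjusted p = 8.46e-05). In each of these genes every *il11a*OE library lay below every control library, which was a condition of this ranking. The muscle creatine kinase *ckmb* had 5.58, 6.01 and 7.54 CPM, against 173, 823 and 146 CPM, so that the highest control value came from the library with skeletal muscle RNA. Without that library *ckmb* still differed (log2 fold change -4.65, edgeR adjusted p = 0.000202).

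A count near 0 in 1 group was rare. Of the tested genes, 11 had at most 3 counts in every *il11a*OE library and 67 had at most 3 counts in every control library. Of the 67, 10 had at least 40 counts in every *il11a*OE library. They included the leptin genes *lepa* and *lepb*, which encode a hormone-like cytokine of the same helical class, at 167, 61 and 264 counts (*lepa*) and 68, 40 and 129 counts (*lepb*) in *il11a*OE hearts. Control hearts had 0, 2 and 2 counts of *lepa* and 0 of *lepb*, so that *lepa* was at least 38-fold and *lepb* at least 18.6-fold higher. A further one, *tcnba*, named for a vitamin B12 carrier, was at least 19.8-fold higher, with 73, 53 and 123 counts in *il11a*OE hearts, against 1, 2 and 2 counts in control hearts. The 3 genes of this paragraph were named after their values were seen.

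Some of the most abundant transcripts also changed, which moves the whole transcript pool. On the TPM scale (counts per exon length, a share of the pool without TMM factors), the ADP/ATP carrier *slc25a5* averaged 11369 TPM in *il11a*OE hearts, against 23532 TPM in control hearts, the largest loss (log2 fold change -1.41 ± 0.079 SE, edgeR adjusted p = 9.34e-05). Cardiac actin *actc1a* and the light chain *cmlc1* were among the other large losses, with 5 genes of the mitochondrial genome. On the other side, annexin *anxa2a*, a calcium-dependent membrane-binding protein, averaged 3245 TPM, against 616 TPM (log2 fold change 2.04 ± 0.16 SE, edgeR adjusted p = 0.000319). The small nuclear protein gene *mustn1b* averaged 2201 TPM, against 412 TPM (log2 fold change 2.05 ± 0.18 SE, edgeR adjusted p = 0.000439). The intermediate filament *desma* averaged 3118 TPM, against 1089.9 TPM (log2 fold change 1.15 ± 0.13 SE, edgeR adjusted p = 0.00115). Creatine kinase *ckma* was higher, with 5086, 5893 and 5074 CPM, against 3589.5, 4300.5 and 3178 CPM in control hearts (log2 fold change 0.54 ± 0.13 SE, edgeR adjusted p = 0.0188), although this call was lost without *il11a*OE replicate 2 or control replicate 1 or 3 (edgeR adjusted p = 0.0504, 0.0586 and 0.0553). Major vault protein *mvp*, the main part of ribonucleoprotein vaults and named after its values were seen, reached 1212, 1411 and 1181 CPM, against 60.5, 60.4 and 46.4 CPM (log2 fold change 4.51 ± 0.15 SE, edgeR adjusted p = 2.91e-05).

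Complement, the plasma protein cascade that tags and lyses targets, was higher at several steps. Of 7 tested genes of the classical and lectin pathways, 6 were higher and 1 lower (median log2 fold change 2.41). All 5 tested regulators and receptors were higher (median 2.68), and 4 were higher without control replicate 2. However, 1 of these 5 had at most 3 counts in every control library. It passed the read filter through the *il11a*OE libraries alone, so it could only be called higher. *c4b* stood at 588, 542 and 688 CPM in *il11a*OE hearts, against 44.3, 52.6 and 37.8 CPM in control hearts (log2 fold change 3.76 ± 0.16 SE, edgeR adjusted p = 5.26e-05). The C1q subunits *c1qa* and *c1qb*, which macrophages make, rose by 2.60 and 2.66 on the log2 scale. Terminal component *c7a* had 475, 469.6 and 538 CPM, against 86.5, 67.7 and 68.3 CPM (log2 fold change 2.74 ± 0.13 SE, edgeR adjusted p = 6.28e-05). A gene annotated as *c6* (ENSDARG00000057113), named after its values were seen, had 2051, 2404 and 2291 CPM, against 277, 241 and 206 CPM (log2 fold change 3.22 ± 0.14 SE, edgeR adjusted p = 5.06e-05), although its exons overlap *c7b* on the opposite strand. The chaperone-like regulator *clu* had 321, 437 and 320.1 CPM, against 54.8, 63.5 and 40.2 CPM (log2 fold change 2.77 ± 0.22 SE, edgeR adjusted p = 0.000313).

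Complement did not move as 1 block. Of 9 tested genes of the C3 and alternative pathway group 3 were higher and 1 was lower (median 0.19), beside 20.2% and 17.1% of all genes. Against the rises of *c3a.1* and of properdin *cfp* (2.48 on the log2 scale), factor D *cfd*, the protease that starts the alternative loop, fell to 204, 126 and 166 CPM, against 323, 238 and 285 CPM in control hearts (log2 fold change -0.77 ± 0.2 SE, edgeR adjusted p = 0.0235). The call of *cfd* was lost without *il11a*OE replicate 3 or control replicate 1 or 3 (edgeR adjusted p = 0.0736, 0.0696 and 0.0626) and with library totals (edgeR adjusted p = 0.123). In clotting, the fibrin cross-linking subunit *f13a1a.1* had 1203, 1465 and 2431 CPM, against 436, 382 and 270.0 CPM (log2 fold change 2.23 ± 0.31 SE, edgeR adjusted p = 0.00282). Tissue factor *f3a*, which starts coagulation, had 41.6, 82.2 and 60.1 CPM, against 13.7, 9.61 and 7.12 CPM (log2 fold change 2.59 ± 0.34 SE, edgeR adjusted p = 0.00223). Its paralogue *f3b* fell (-0.76), as did factor X *f10* (-0.86). The acute phase genes were mostly near the limit of detection, and of 9 tested 3 were higher and 1 lower (median 0.84), beside the same shares of all genes.

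Leukocyte genes rose together. Of 16 tested genes shared by white blood cells, 13 were higher and none lower, with a median log2 fold change of 1.66, against a background of 20.2% of all genes called higher. Their summed level was 439.8, 453 and 534 TPM in *il11a*OE hearts, against 128, 101 and 111 TPM in control hearts. The actin-bundling protein *lcp1* (L-plastin) stood at 54.5, 60.3 and 59.3 CPM, against 12.6, 7.79 and 10.8 CPM (log2 fold change 2.48 ± 0.18 SE, edgeR adjusted p = 0.00023). For macrophages, 11 of 13 defining markers were higher and 1 lower (median 1.76), and their sum was 269, 289 and 333 TPM in *il11a*OE hearts, against 67.4, 59.6 and 68 TPM. The colony-stimulating factor 1 receptor *csf1rb* had 11.2, 14.2 and 12.2 CPM, against 2.11, 1.53 and 1.48 CPM (log2 fold change 2.87 ± 0.18 SE, edgeR adjusted p = 0.000135). The lineage factor *spi1b* rose as well (2.36). The 1 lower marker was *timd4*, a receptor for dying cells, named after its values were seen (log2 fold change -0.84 ± 0.19 SE, edgeR adjusted p = 0.0141), and its call was lost without *il11a*OE replicate 1 (edgeR adjusted p = 0.0521) and with library totals (edgeR adjusted p = 0.0966).

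Markers of other white cells were fainter, and their counts are given beside 20.2% of all genes called higher. Of the neutrophil markers, 4 of 6 tested defining genes were higher (median 1.26), among them the receptor *csf3r* with 19.7, 26.1 and 25.1 CPM in *il11a*OE hearts, against 3.41, 2.46 and 3.32 CPM in control hearts (log2 fold change 2.95 ± 0.18 SE, edgeR adjusted p = 0.000112). The NADPH oxidase subunits *cybb* and *ncf4*, which make the oxidative burst, rose by 2.32 and 2.66 on the log2 scale. Of 9 tested B cell genes 6 were higher (median 2.80, or 0.70 above that of all genes where at least 10 counts in every library were required), but they summed to only 22.8, 22.1 and 45.8 TPM, against 8.07, 6.2 and 7.6 TPM. The inhibitory receptor *cd22* had 7.32, 7.47 and 5.74 CPM, against 1.48, 1.91 and 1.48 CPM (log2 fold change 2.07 ± 0.17 SE, edgeR adjusted p = 0.000378). Of 20 tested genes of T and NK cells 9 were higher and none lower (median 0.86), but 4 without *il11a*OE replicate 1 and 5 without *il11a*OE replicate 3 or control replicate 1. In the 4 lists of this paragraph and the pan-leukocyte list, leaving out control replicate 2 changed the number called higher by at most 2.

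**Figure D3:**
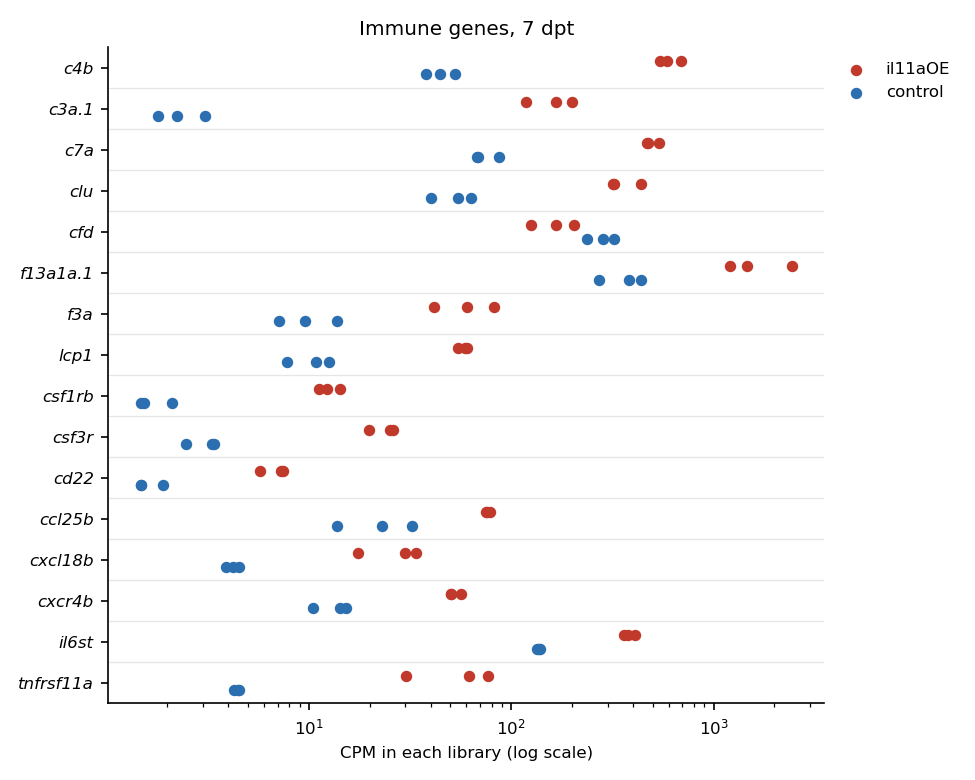
CPM in each library (log scale) for 16 genes of complement, clotting, white blood cells, chemokines and cytokine receptors. Red points are the 3 *il11a*OE libraries and blue points the 3 control libraries of each gene. In each of the rising genes shown the *il11a*OE points lie above all control points, as for *c4b* (588, 542 and 688 CPM, against 44.3, 52.6 and 37.8 CPM), while *cfd* lies the other way. Members named for a rise or fall were chosen among genes whose groups do not overlap.

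Signals that guide and feed these cells rose in part. Among CC chemokines 10 of 18 tested were higher (median 1.27), a count that was 6 without *il11a*OE replicate 2 or 3 or control replicate 1, and *ccl20b* alone was lower (-1.32 on the log2 scale). Of the 10, 1 had at most 3 counts in every control library. It passed the read filter through the *il11a*OE libraries alone, so it could only be called higher. *ccl25b*, a ligand that attracts lymphocytes, was the most abundant CC chemokine with 76.3, 78.3 and 74.8 CPM in *il11a*OE hearts, against 13.7, 32.3 and 23 CPM in control hearts (log2 fold change 1.73 ± 0.29 SE, edgeR adjusted p = 0.00549). The zebrafish CXC chemokine *cxcl18b*, known for drawing neutrophils, had 30, 17.4 and 33.9 CPM, against 3.9, 4.49 and 4.24 CPM (log2 fold change 2.69 ± 0.26 SE, edgeR adjusted p = 0.000672). Of 20 chemokine receptors 11 were higher and none lower (median 1.16), with *cxcr4b*, the receptor of Cxcl12, at 56.6, 50.2 and 50.3 CPM, against 15.3, 10.5 and 14.2 CPM (log2 fold change 1.97 ± 0.15 SE, edgeR adjusted p = 0.000262). The macrophage growth factors *csf1a* and *il34*, both ligands of the receptor that *csf1rb* encodes, rose by 2.07 and 1.48. The neutrophil growth factor *csf3a* fell to 1.49, 2.38 and 2.23 CPM, against 7.83, 5.48 and 6.12 CPM (log2 fold change -1.67 ± 0.23 SE, edgeR adjusted p = 0.00214), opposite to its receptor.

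Cytokine receptors were mostly higher, with 16 of 25 tested higher and 1 lower (median 1.30). The shared subunit gp130, *il6st*, through which interleukin 11 itself signals, had 362, 409 and 379 CPM in *il11a*OE hearts, against 139, 134 and 138 CPM in control hearts (log2 fold change 1.48 ± 0.079 SE, edgeR adjusted p = 8.46e-05). *tnfrsf11a*, the receptor RANK, had 76.6, 30.3 and 61.6 CPM, against 4.26, 4.51 and 4.47 CPM (log2 fold change 3.67 ± 0.35 SE, edgeR adjusted p = 0.000788). The leukaemia inhibitory factor receptor *lifrb*, which also pairs with gp130 in mammals, rose by 2.47 on the log2 scale. *il6r* also rose, to 5.41, 4.25 and 6.94 CPM, against 0.802, 0.433 and 1 CPM (log2 fold change 2.89 ± 0.34 SE, edgeR adjusted p = 0.00135).

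Antigen presentation and the lysosome followed the leukocyte genes in direction. All 6 tested genes of class II presentation were higher (median 1.37), among them the transactivator *ciita* (1.498) and the invariant chain *cd74a*, at 335, 368 and 397 CPM, against 219.8, 208 and 156 CPM in control hearts (log2 fold change 0.91 ± 0.14 SE, edgeR adjusted p = 0.0038). In class I presentation 13 of 22 were higher and 2 lower (median 0.73); the immunoproteasome subunit *psmb8a* had 84.6, 70.06 and 31.4 CPM, against 14.2, 10.2 and 5.77 CPM (log2 fold change 2.62 ± 0.49 SE, edgeR adjusted p = 0.00923), although its exons overlap those of *psmb13a* and *tap2a*. By contrast the light chain *b2ml* had 889, 947 and 999.9 CPM, against 816, 931 and 972 CPM, and the groups overlapped (edgeR adjusted p = 0.654, or 0.026 and higher with library totals as scaling). Interferon-induced effectors were higher in 6 of 22 cases and lower in none (median 0.90), beside 20.2% and 17.1% of all genes. Of the 6, 1 had at most 3 counts in every control library, so it could only be called higher. Lysosomal genes were higher in 20 of 35 cases and lower in 2 (median 0.43), with cathepsin *ctsh* at 50.1, 47.8 and 48.5 CPM, against 23, 24.3 and 25.4 CPM (log2 fold change 1.01 ± 0.069 SE, edgeR adjusted p = 0.000176). Of 25 autophagy genes 3 were higher and 7 lower (median -0.13), beside the same 20.2% and 17.1% of all genes. With library totals as scaling the split turned to 9 higher and 5 lower. The initiating kinase *ulk1a* fell to 34.2, 29 and 30 CPM, against 87.8, 117 and 71.6 CPM (log2 fold change -1.57 ± 0.19 SE, edgeR adjusted p = 0.00136), and the muscle ubiquitin ligase *trim63a* fell by 1.32 on the log2 scale.

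Matrix genes moved in both directions, beside a background of 20.2% of all genes called higher and 17.1% lower. Of 39 tested collagen genes 4 were higher and 11 lower (median -0.10), which became 10 higher and 7 lower with library totals as scaling. Without *il11a*OE replicate 3 or control replicate 3, 2 collagens were higher. The count of lower collagens was 7 without any 1 of the 3 *il11a*OE libraries or without control replicate 1 or 3. *col18a1b*, a basement membrane collagen, fell to 5.53, 8.39 and 8.22 CPM, against 22.5, 23 and 20.8 CPM in control hearts (log2 fold change -1.58 ± 0.17 SE, edgeR adjusted p = 0.000916), and *col16a1* fell by 1.30. *col22a1*, known from tissue junctions, rose to 8, 4.23 and 9.18 CPM, against 0.723, 1.2 and 0.501 CPM (log2 fold change 3.15 ± 0.43 SE, edgeR adjusted p = 0.00232). The provisional matrix, which forms early in wounds, held 9 higher and 3 lower of 21 genes (median 0.29), and it summed to 1249, 971 and 1646 TPM in *il11a*OE hearts, against 199, 238 and 199.9 TPM in control hearts. Most of that sum was fibronectin *fn1b*, with 5002, 3906 and 6253 CPM, against 665, 730.1 and 655 CPM (log2 fold change 2.89 ± 0.18 SE, edgeR adjusted p = 0.000132), a gene that shares exon bases with *atic* of the other strand. Tenascin *tnc* had 22.8, 29.9 and 8.24 CPM, against 0.534, 1.86 and 0.701 CPM (log2 fold change 4.304 ± 0.71 SE, edgeR adjusted p = 0.00598), and the hyaluronan link protein *hapln1a* fell to 15.4, 10.4 and 23 CPM, against 56.5, 71.9 and 62.4 CPM (log2 fold change -1.97 ± 0.29 SE, edgeR adjusted p = 0.00331). Of 27 matricellular genes 6 were higher and 6 lower (median 0.019), close to the shares of all genes. With library totals as scaling 8 were higher and 3 lower. The 6 lower ones numbered 3 without control replicate 2 or *il11a*OE replicate 1 and 2 without *il11a*OE replicate 2. Within the thrombospondins *thbs4a* reached 18.9, 20.4 and 29.3 CPM, against 0.424, 1.27 and 0.3 CPM (log2 fold change 5.11 ± 0.57 SE, edgeR adjusted p = 0.00139), whereas *thbs3a* fell by 1.02 on the log2 scale.

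Enzymes that cut or protect the matrix leaned upward. Of 29 ADAM and ADAMTS proteases 10 were higher and 2 lower (median 0.31), beside 20.2% and 17.1% of all genes. Relative to the median of all genes, their median was 0.29. It was 0.055 with no count filter and 0.14 without control replicate 3. *adam8b* had 135, 143 and 171 CPM in *il11a*OE hearts, against 25.7, 36.7 and 29.8 CPM in control hearts (log2 fold change 2.28 ± 0.16 SE, edgeR adjusted p = 0.000202). The metalloprotease inhibitor *timp2b* had 34.5, 49.8 and 64.9 CPM, against 9.34, 7.06 and 5.99 CPM (log2 fold change 2.74 ± 0.28 SE, edgeR adjusted p = 0.000931). For these genes the groups did not overlap, which was a condition for naming members that rose or fell most. *ltbp1*, which stores latent TGF-beta in the matrix, rose by 2.23, while the small proteoglycans *bgnb*, *lum* and *prelp* fell by 1.42, 1.19 and 1.33.

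Epicardial markers, which label the outer cell layer of the heart, were split, with 4 of 14 higher and 3 lower (median -0.061). Over all genes 20.2% were higher and 17.1% lower. The retinoic acid enzyme *aldh1a2*, a marker of activated epicardium, stood at 281, 194 and 345 CPM in *il11a*OE hearts, against 61.9, 70.29 and 49.1 CPM in control hearts (log2 fold change 2.18 ± 0.24 SE, edgeR adjusted p = 0.00115). *wt1b* rose to 9.58, 10.6 and 12.3 CPM, against 2.48, 2.44 and 2.05 CPM (log2 fold change 2.22 ± 0.14 SE, edgeR adjusted p = 0.000147), with exons that overlap *kifc3* on the opposite strand. The lineage marker *tcf21* fell to 6.18, 4.09 and 6.83 CPM, against 7.86, 10.3 and 10.7 CPM (log2 fold change -0.75 ± 0.22 SE, edgeR adjusted p = 0.0353), a call that was lost with library totals (edgeR adjusted p = 0.213) and without *il11a*OE replicate 1 or 2 or control replicate 2 or 3 (edgeR adjusted p = 0.0807, 0.0598, 0.0834 and 0.0971). Endothelial markers were lower more often than higher: 13 of 37 were lower and 4 higher (median -0.38), beside a background of 17.1% of all genes called lower, and with library totals as scaling the split was even at 7 and 7. The vascular growth factor receptor *kdrl* had 225, 226 and 198 CPM, against 343, 497 and 421 CPM (log2 fold change -0.96 ± 0.15 SE, edgeR adjusted p = 0.00322), while *vwf*, the von Willebrand factor gene, had 679.7, 645 and 642 CPM, against 474, 343 and 349 CPM (log2 fold change 0.75 ± 0.14 SE, edgeR adjusted p = 0.00659). Among mural genes the platelet-derived growth factor receptor *pdgfrb* rose (1.05), and the channel subunit *abcc9* fell to 125, 91.5 and 132 CPM, against 379.7, 312 and 310.1 CPM (log2 fold change -1.53 ± 0.16 SE, edgeR adjusted p = 0.00089).

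Secreted growth factors are given beside a background of 20.2% of all genes higher and 17.1% lower. Of 38 tested ligands and binding proteins for receptor tyrosine kinases 4 were higher and 9 lower (median -0.31). Of 31 WNT, Notch and related genes 5 were higher and 9 lower (median -0.49), a split that turned to 8 higher and 5 lower with library totals as scaling. The 5 higher ones were 3 without *il11a*OE replicate 1 or 3 or control replicate 2. Vascular factors were lower in 4 and higher in 2 of 18 cases (median -0.44), the lower ones including *vegfaa*, at 20.6, 16.9 and 19 CPM, against 30.8, 45.8 and 33.8 CPM in control hearts (log2 fold change -0.97 ± 0.16 SE, edgeR adjusted p = 0.00498), and *angpt1* (-0.87). On the TGF-beta family list 5 of 29 rose and 7 fell (median -0.093), but 6 rose and 4 fell with library totals as scaling. The gene annotated as *BMP10*, described above, is not among these 29. On this list the activin subunit *inhbb* fell to 3.34, 4.79 and 3.43 CPM, against 27.3, 21 and 31.7 CPM (log2 fold change -2.79 ± 0.21 SE, edgeR adjusted p = 0.000279). In the other direction *fgf1a* rose to 6.33, 6.56 and 5.84 CPM, against 0.597, 0.624 and 0.534 CPM (log2 fold change 3.41 ± 0.14 SE, edgeR adjusted p = 4.63e-05). *gas6*, a ligand of receptors that clear dying cells, had 193, 246 and 194 CPM, against 109, 82.5 and 80.3 CPM (log2 fold change 1.22 ± 0.16 SE, edgeR adjusted p = 0.00173). *igf2b* rose (1.22), whereas the binding protein *igfbp3*, with 53.3, 53 and 40.2 CPM, against 167, 89.6 and 114 CPM, was lower (log2 fold change -1.34 ± 0.25 SE, edgeR adjusted p = 0.00713).

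The machinery that builds ribosomes rose broadly. In the nucleolus, ribosomal RNA is transcribed, modified by small nucleolar particles and assembled with proteins into subunits. Of 50 tested factors of large subunit assembly 38 were higher and none lower (median 0.58), and of 50 factors of small subunit assembly 32 were higher and 3 lower (median 0.51). All 9 proteins of the box C/D and H/ACA particles were higher, with summed levels of 497, 435 and 466 TPM in *il11a*OE hearts, against 191, 215 and 223 TPM in control hearts. The processing factor *heatr1* stood at 48, 45.8 and 42.2 CPM, against 19.1, 22.4 and 19.4 CPM (log2 fold change 1.16 ± 0.092 SE, edgeR adjusted p = 0.000306). The kinase *riok2*, which acts late in small subunit maturation, was an exception with 31.3, 30.6 and 28.4 CPM, against 66.4, 66.8 and 68.2 CPM (log2 fold change -1.16 ± 0.07 SE, edgeR adjusted p = 0.000113).

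Ribosomal proteins themselves moved little, and their counts are given beside 20.2% of all genes called higher. Of 45 tested large subunit genes 22 were higher (median 0.28), and of 32 small subunit genes 15 were higher and 1 lower (median 0.26), against 43 and 30 higher with library totals as scaling. These calls were fragile: without control replicate 2 they numbered 8 and 5, and without *il11a*OE replicate 1 they numbered 12 and 8, while without control replicate 2 the medians were 0.25 and 0.23. The large subunit count was also 13 without *il11a*OE replicate 3 and 10 without control replicate 3. As shares of the pool they took more room, since the large subunit genes summed to 69538, 59564 and 67723 TPM in *il11a*OE hearts, against 42063, 41589 and 42783 TPM in control hearts. The variant *rpl22l1*, a paralogue of *rpl22*, changed more than the rest, at 150.3, 155 and 140.0 CPM, against 53, 71.6 and 63.3 CPM (log2 fold change 1.24 ± 0.12 SE, edgeR adjusted p = 0.000672). Of 19 cytosolic tRNA synthetases, which load amino acids, 15 were higher and none lower (median 0.57).

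The mitochondrial ribosome went the other way. Of 47 large subunit genes 32 were lower and none higher (median -0.39), and of 28 small subunit genes 20 were lower and none higher (median -0.40). *mrps35*, a small subunit protein, stood at 32.8, 29.7 and 29.1 CPM in *il11a*OE hearts, against 56.8, 54.9 and 56.6 CPM in control hearts (log2 fold change -0.88 ± 0.074 SE, edgeR adjusted p = 0.000388). These falls were modest and depended on scaling: with library totals, 11 and 3 were lower and 3 and 2 higher, with medians of -0.06 and -0.072 beside an all-gene median of 0.35. The summed share of the large subunit was 1740.1, 1668 and 1695 TPM, against 1762, 1816 and 1821 TPM.

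**Figure D4:**
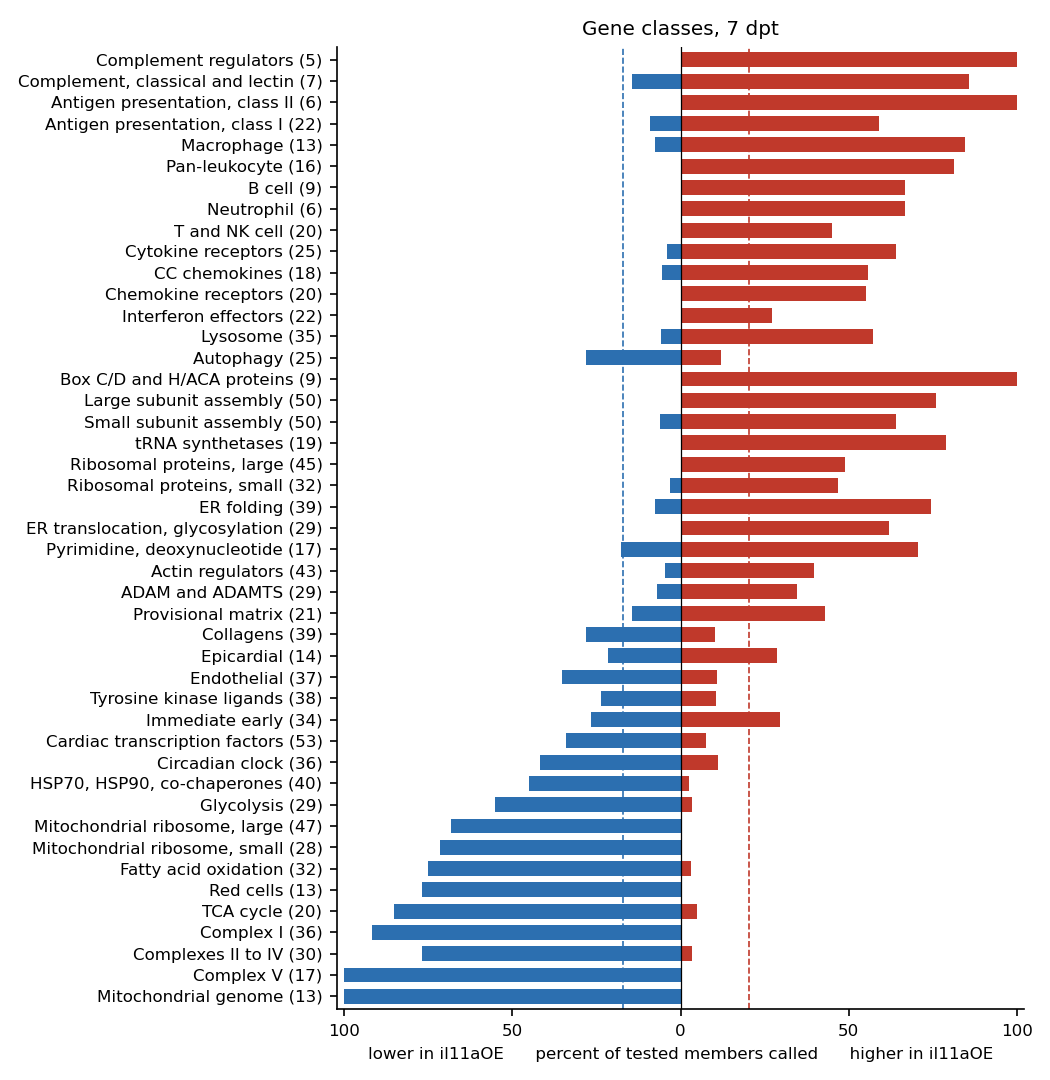
Percent of the tested members of each gene class called higher (red, to the right) and lower (blue, to the left) in *il11a*OE hearts at an adjusted p under 0.05, with the number tested in brackets. Dashed lines mark the background of 20.2% higher and 17.1% lower over all 19647 genes. Complement, leukocyte, nucleolar and endoplasmic reticulum classes extend to the right, while respiratory, fatty acid and mitochondrial ribosome classes extend to the left.

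Early steps of the secretory pathway rose with the nucleolar genes. Of 39 genes for protein folding in the endoplasmic reticulum (ER) 29 were higher and 3 lower (median 0.85), and their sum was 1973, 1825 and 1936 TPM in *il11a*OE hearts, against 805, 883 and 793 TPM in control hearts. The ER chaperone *hspa5* (BiP) had 253, 239 and 199.9 CPM, against 78.4, 94.1 and 77.3 CPM (log2 fold change 1.47 ± 0.13 SE, edgeR adjusted p = 0.000415). The disulphide isomerase *pdia4* had 49.7, 47.1 and 44.9 CPM, against 13.7, 15.5 and 13.4 CPM (log2 fold change 1.73 ± 0.086 SE, edgeR adjusted p = 6.95e-05). Neither pair of groups overlapped, but members named for their rise were chosen among those without overlap. Of the 29 genes for translocation and glycosylation 18 were higher and none lower (median 0.42). Of 27 genes of vesicle transport, a later step, 8 were higher and 1 lower (median 0.13), beside 20.2% and 17.1% of all genes. With library totals as scaling 22 were higher and 0 lower. The unfolded protein sensor pathway included *xbp1*, with 281, 277 and 242 CPM, against 135, 147 and 139 CPM (log2 fold change 0.93 ± 0.089 SE, edgeR adjusted p = 0.000613). *derl3*, of ER-associated degradation, fell to 23.3, 24.3 and 22.7 CPM, against 47.7, 66.5 and 61.8 CPM (log2 fold change -1.32 ± 0.13 SE, edgeR adjusted p = 0.000653).

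Cytosolic chaperones did not share this rise in the main calls. Of 40 HSP70, HSP90 and co-chaperone genes 18 were lower and 1 higher (median -0.40), beside 17.1% and 20.2% of all genes. With library totals 9 were lower and 10 higher. Of 14 small heat shock protein and CCT chaperonin genes 3 were higher and 2 lower (median 0.068), close to those shares. With library totals 9 were higher and 0 lower. In summed TPM both lists averaged higher in *il11a*OE hearts (4228 and 7587 TPM) than in control hearts (3713 and 5636 TPM). The heat-inducible *hsp70.3* fell to 3.73, 4.58 and 2.23 CPM, against 17.2, 9.99 and 15 CPM in control hearts (log2 fold change -2.003 ± 0.32 SE, edgeR adjusted p = 0.0042), and its neighbours *hsp70.1* and *hsp70l* fell by 1.69 and 1.64. Reads that map to several of these near-identical copies were not counted. The stress factor *atf3*, an early response gene, fell to 48.7, 52.7 and 50.9 CPM, against 243, 121 and 286 CPM (log2 fold change -2.09 ± 0.31 SE, edgeR adjusted p = 0.00337). Proteasome genes were higher in 8 of 15 core (median 0.30) and 10 of 32 regulatory cases (median 0.18), beside 20.2% of all genes. With library totals as scaling 15 and 30 were higher. The count of 10 regulatory genes was 5 without control replicate 2 and 6 without *il11a*OE replicate 1. The activator *psme4a* fell to 62.4, 37.8 and 42.1 CPM, against 121, 175 and 208 CPM (log2 fold change -1.82 ± 0.27 SE, edgeR adjusted p = 0.00325).

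Genes of energy metabolism fell together. Ventricular cardiomyocyte markers were lower too, with 10 of 14 tested lower and 3 higher (median -0.83). Whether these falls share a cause was not tested. Mitochondria feed electrons from the TCA cycle and from fatty acid oxidation through complexes I to IV, and complex V makes ATP. Of 36 tested nuclear genes of complex I 33 were lower (median -0.71), of 30 of complexes II to IV 23 were lower and 1 higher (median -0.55), and all 17 of complex V were lower (median -0.57). With library totals as scaling the numbers lower were 26, 12 and 8, and 3 genes of complexes II to IV were higher. Within complex IV single subunits parted. The heart and muscle form *cox7a1* fell to 185, 162 and 149 CPM, against 527, 473 and 507 CPM in control hearts (log2 fold change -1.60 ± 0.1 SE, edgeR adjusted p = 0.000147). The gene of a different subunit, *cox6a1*, rose to 32.4, 33.6 and 30.8 CPM, against 21, 20.2 and 16.3 CPM (log2 fold change 0.75 ± 0.11 SE, edgeR adjusted p = 0.00273). All 13 genes of the mitochondrial genome were lower (median -0.69), at 216515, 255025 and 232721 TPM in sum in *il11a*OE hearts, against 298292, 274072 and 294236 TPM.

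Fatty acid oxidation fell with them. Of 32 tested genes of uptake and oxidation 24 were lower and 1 higher (median -0.64). The very-long-chain dehydrogenase *acadvl*, which takes the first step of the spiral, fell to 744, 609 and 623 CPM, against 3647, 3053 and 3236 CPM in control hearts (log2 fold change -2.33 ± 0.12 SE, edgeR adjusted p = 7.17e-05). The acyl-CoA synthetase *acsl1b* fell to 232, 206 and 182 CPM, against 1105, 1233 and 986 CPM (log2 fold change -2.42 ± 0.13 SE, edgeR adjusted p = 8.54e-05). *cpt1ab*, the gate of fatty acid entry into mitochondria, fell to 169.8, 144 and 165 CPM, against 512, 469 and 422 CPM (log2 fold change -1.55 ± 0.11 SE, edgeR adjusted p = 0.000195). In all of these the groups were well apart, but members named for their fall were chosen among those without overlap. The fatty acid binding protein *fabp4a*, found in endothelium and fat cells of mammals, was the single rise, at 761, 488 and 635 CPM, against 428, 344 and 397 CPM (log2 fold change 0.69 ± 0.17 SE, edgeR adjusted p = 0.0216), a call that was lost without *il11a*OE replicate 3 or control replicate 2 or 3 (edgeR adjusted p = 0.0568, 0.062 and 0.0603). *ppargc1a*, the co-activator that promotes mitochondrial gene expression, fell to 44.2, 51.6 and 37.3 CPM, against 218, 193 and 157 CPM (log2 fold change -2.09 ± 0.17 SE, edgeR adjusted p = 0.000331), and mitochondrial creatine kinase *ckmt2b* fell by 1.72. In the TCA cycle 17 of 20 genes were lower and 1 higher (median -0.67), including *idh2*, with 1284, 1251 and 1154 CPM, against 2804, 2637 and 2592 CPM (log2 fold change -1.12 ± 0.08 SE, edgeR adjusted p = 0.000202).

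Glycolysis fell as well. Of 29 tested enzymes 16 were lower and 1 higher (median -0.49), or 9 lower and 6 higher with library totals as scaling, and the class summed to 13501, 12495 and 12373 TPM in *il11a*OE hearts, against 22006, 24693 and 21373 TPM in control hearts. The muscle aldolase *aldoaa* stood at 1751, 1475 and 1513 CPM, against 5897, 7056 and 6185 CPM (log2 fold change -2.01 ± 0.11 SE, edgeR adjusted p = 9.12e-05), and *GAPDH* fell by 1.85. The enolases parted, with the muscle form *eno3* at 1125, 1308 and 1240.1 CPM, against 2973, 3191 and 3246 CPM (log2 fold change -1.36 ± 0.088 SE, edgeR adjusted p = 0.000143), and the lowly expressed *eno1b* rising by 1.34. The lactate and pyruvate carrier *slc16a1b* fell to 77.8, 88.2 and 74.6 CPM, against 267, 289 and 231 CPM (log2 fold change -1.71 ± 0.12 SE, edgeR adjusted p = 0.000176). Its paralogue *slc16a1a* fell by 2.56. Of 25 transporters and regulators (median -0.30), 5 were higher and 7 lower, beside 20.2% and 17.1% of all genes. The share of rises was thus close to that of all genes. With library totals as scaling the split turned to 9 higher and 6 lower. The higher ones included the glucose transporter *slc2a3b* (0.81) and the pentose phosphate enzyme *pgd* (0.72).

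**Figure D5:**
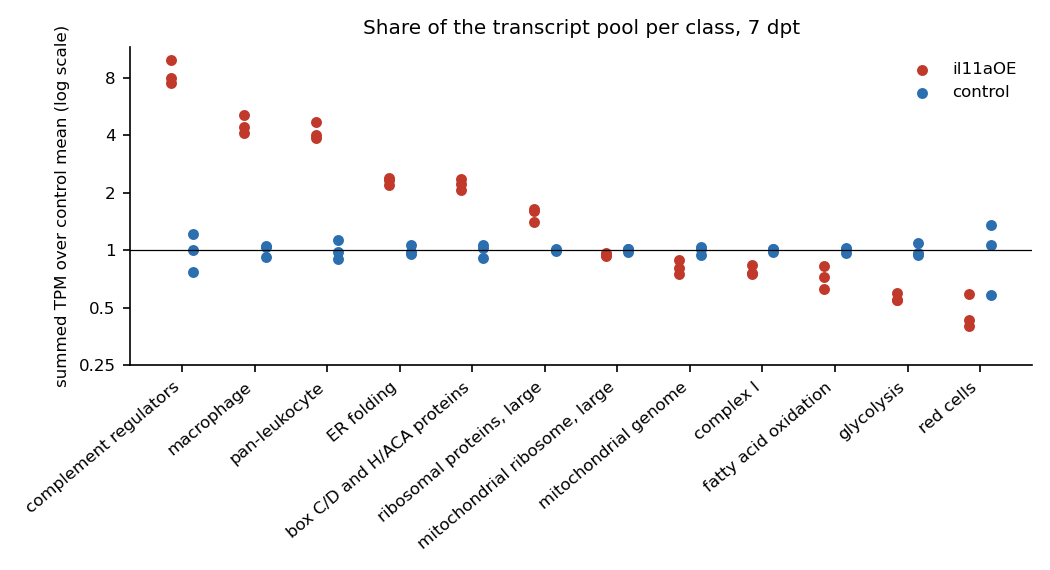
Summed TPM of 12 gene classes in each library, each divided by the mean of the 3 control libraries (vertical axis, 1 marks the control mean). Red points are *il11a*OE libraries and blue points control libraries. Classes run from complement regulators, where the means differ by a ratio of 8.5, to red cell genes, with a ratio of 0.473.

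Genes of nucleotide synthesis did not move as 1 group. Of 17 pyrimidine and deoxynucleotide genes 12 were higher and 3 lower (median 0.46). The ribonucleotide reductase subunit *rrm1* had 51.5, 50.4 and 52.3 CPM in *il11a*OE hearts, against 9.41, 9.29 and 9.41 CPM in control hearts (log2 fold change 2.46 ± 0.063 SE, edgeR adjusted p = 2.42e-05). Of 15 purine genes 6 were higher and 5 lower (median 0.15), beside 20.2% and 17.1% of all genes. Without control replicate 2 the split was 8 higher and 5 lower, with a median of 0.41. The purine list summed to less, at 543, 519 and 534 TPM in *il11a*OE hearts, against 652, 746 and 775 TPM in control hearts. The adenylosuccinate genes *adsl*, *adss1* and *adss2*, which convert IMP to AMP, were lower at -0.87, -1.096 and -1.14 on the log2 scale. Serine and one-carbon enzyme *shmt1* rose to 15.3, 20.6 and 18.3 CPM, against 3.8, 3.36 and 3.27 CPM (log2 fold change 2.38 ± 0.14 SE, edgeR adjusted p = 0.000108). The neutral amino acid carrier *slc38a2* fell to 371, 508 and 351 CPM, against 1056, 969.9 and 956 CPM (log2 fold change -1.28 ± 0.15 SE, edgeR adjusted p = 0.00134). Thioredoxin *txn*, a reducing protein, rose to 35.14, 34.9 and 32 CPM, against 4.89, 4.47 and 4.97 CPM (log2 fold change 2.83 ± 0.086 SE, edgeR adjusted p = 2.67e-05), whereas mitochondrial *sod2* fell by 0.94.

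Transcription factors of the heart were lower more often than higher, with 18 of 53 lower and 4 higher (median -0.17). Over all genes 17.1% were lower and 20.2% higher. The split of the heart factors turned to 10 lower and 13 higher with library totals as scaling. Without *il11a*OE replicate 1 the count of lower genes was 11. *tbx5b*, a T-box factor of chamber cardiomyocytes, had 9.06, 11 and 8.9 CPM in *il11a*OE hearts, against 26.5, 23.4 and 19.8 CPM in control hearts (log2 fold change -1.27 ± 0.14 SE, edgeR adjusted p = 0.00106). *hey2* and *irx5a* fell by 0.95 and 0.99. *hand2* had 129, 126 and 134 CPM, against 119.8, 111 and 127 CPM, and the groups overlapped (edgeR adjusted p = 0.291, or 0.00617 and higher with library totals as scaling). The co-activators *wwtr1* (TAZ) and *mrtfab*, which respond to tension and actin, rose by 0.71 and 0.87. In the circadian clock, the daily oscillator of transcription, 15 of 36 genes were lower and 4 higher (median -0.46), or 9 lower and 8 higher with library totals as scaling. Without *il11a*OE replicate 1, 9 clock genes were lower. *per3*, of the negative arm, fell to 28.9, 23.1 and 19.3 CPM, against 43.3, 70 and 64.8 CPM (log2 fold change -1.32 ± 0.22 SE, edgeR adjusted p = 0.00524), and *bmal1b*, of the positive arm, rose by 0.52. The times of day at which the fish were sampled are not given in the sources used here.

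Immediate early genes, which respond within minutes to signals, moved in both directions, 10 of 34 higher and 9 lower (median -0.12). Over all genes 20.2% were higher and 17.1% lower. *junba* stood at 46.2, 57.4 and 45.8 CPM in *il11a*OE hearts, against 6.11, 6.9 and 3.95 CPM in control hearts (log2 fold change 3.14 ± 0.23 SE, edgeR adjusted p = 0.000255). *fosl1a* rose to 34.4, 31.6 and 33 CPM, against 7.34, 4.06 and 6.46 CPM (log2 fold change 2.47 ± 0.22 SE, edgeR adjusted p = 0.000486). On the other hand *jund* fell to 79.2, 63.3 and 59 CPM, against 123, 114 and 161 CPM (log2 fold change -0.98 ± 0.17 SE, edgeR adjusted p = 0.00533). Targets of ERK signalling were not higher as a group: of 16, 4 were lower and 1 higher (median -0.27), or 3 and 3 with library totals as scaling, with *spry4* and *etv4* falling by 1.43 and 1.62.

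The cytoskeleton leaned upward, beside 20.2% of all genes called higher and 17.1% called lower. Of 43 actin regulators 17 were higher and 2 lower (median 0.23), or 28 and 1 with library totals as scaling, with the branching subunit *arpc1b* at 81.9, 76 and 83.5 CPM in *il11a*OE hearts, against 24.3, 20.7 and 25.3 CPM in control hearts (log2 fold change 1.78 ± 0.1 SE, edgeR adjusted p = 9.39e-05). Of 31 tubulins, stathmins and intermediate filaments 13 were higher and 5 lower (median 0.29), with 3 lower without *il11a*OE replicate 2 or 3 or control replicate 1. The simple epithelial keratin *krt18a.1* had 463, 403 and 484 CPM, against 97.3, 119 and 84.2 CPM (log2 fold change 2.17 ± 0.15 SE, edgeR adjusted p = 0.000179), and vimentin *vim* fell to 8.07, 6.43 and 6.32 CPM, against 22.3, 17.8 and 19.6 CPM (log2 fold change -1.52 ± 0.14 SE, edgeR adjusted p = 0.000497), with exons overlapping *trdmt1*. N-cadherin *cdh2*, which joins cardiomyocytes, had 665, 785 and 727 CPM, against 396, 327 and 313 CPM (log2 fold change 1.07 ± 0.12 SE, edgeR adjusted p = 0.00103). The chloride channel protein *clic5a* rose to 88.7, 94.7 and 66.2 CPM, against 8.456, 9.02 and 7.02 CPM (log2 fold change 3.35 ± 0.17 SE, edgeR adjusted p = 7.72e-05).

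Red cell genes were lower. Of 13 tested genes of haemoglobin and red cells 10 were lower and none higher (median -1.43). Their summed level was 3093, 4262 and 2895 TPM in *il11a*OE hearts, against 4209.6, 7673 and 9771 TPM in control hearts, so the highest *il11a*OE library lay just above the lowest control library. The count of 10 fell to 2 without *il11a*OE replicate 1 or without *il11a*OE replicate 3. *hbaa1*, an adult alpha globin, had 833, 1137 and 725 CPM, against 1457, 2481 and 3329.5 CPM (log2 fold change -1.43 ± 0.32 SE, edgeR adjusted p = 0.0159), with an adjusted p of 0.064 in edgeR without *il11a*OE replicate 1 and of 0.0653 without *il11a*OE replicate 3. The summed level varied between libraries of 1 group. Blood left in the pooled hearts was not measured, and its part in this result was not tested. The retinol carrier *rbp4*, on the liver list, fell to 347, 280.1 and 317 CPM, against 793, 723 and 638 CPM (log2 fold change -1.19 ± 0.12 SE, edgeR adjusted p = 0.00072), while the other liver genes stood near 0.

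Called genes were spread over the genome. Among the 25 chromosomes, the share of tested genes called higher ran between 14.6% (chromosome 4) and 24.9% (chromosome 9), and the share called lower between 9.97% (chromosome 22) and 23.8% (chromosome 12). On chromosome 7 the neighbours of *apip* moved in both directions. In GRCz11 coordinates *apip* spans 49901483 to 49908518, between *PAMR1*, which starts at 49800478, and *hsd17b12b*, which starts at 50228015 and rose by 0.63 on the log2 scale (edgeR adjusted p = 0.00144). The gene between *PAMR1* and *apip* is *cd44a*, with 0.188, 0.0753 and 0.011 CPM in *il11a*OE hearts, against 0.0943, 13.6 and 0.334 CPM in control hearts, high in control replicate 2 alone and not called (edgeR adjusted p = 0.103). Farther out *hrasb* was lower (-0.73, edgeR adjusted p = 0.0204), a call lost with library totals (edgeR adjusted p = 0.0732) and without *il11a*OE replicate 1 or 3 or control replicate 1 (edgeR adjusted p = 0.0693, 0.0601 and 0.0502). *ttc17* had 18.3, 16 and 17.4 CPM, against 20, 16.8 and 17.2 CPM, and *prc1b* was higher (5.98). These neighbours were singled out after their values were seen.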

How the data were processed

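Bulk RNA-seq of adult zebrafish hearts was analysed for the 7-day comparison only, with 3 *il11a*OE and 3 control libraries grouped by the sample labels. Each library is one of 3 replicate pools of hearts per group, so p-values measure the spread between pools. Per the paper's methods and the file header, the authors trimmed the paired reads, aligned them to GRCz11 with HISAT2 and deposited raw fragment counts per Ensembl gene from featureCounts 2.0.0, unstranded and without multi-mapping fragments. Unstranded counting cannot tell overlapping genes on opposite strands apart, and near-identical copies lose reads. Assigned fragments per library ran between 61691132 and 80703699, which was 67.9 to 72.3% of all fragments.

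Symbols were found for 29399 of 32520 gene IDs, from the gene name tables of GRCz11 and from the names in the study's supplementary tables. Genes were filtered with filterByExpr, scaled with TMM and tested with edgeR 4.0.16 (quasi-likelihood, robust dispersion, no covariate, R 4.3.3) on this time point alone, with Benjamini-Hochberg adjustment over all 19647 genes tested and a threshold of 0.05. TPM was computed from the counts and the exon lengths in the file. A floor of 3 counts per library was used for genes near 0. Summed TPM of classes is given per library, as an exact two-sided permutation test over the 20 splits of 6 libraries cannot give a p below 0.1. Counts were also simulated for 18872 genes, of which only 93 were changed by 1 and 97 by 2 on the log2 scale. There edgeR recovered 35.5% of the former and 72.2% of the latter, and 12% of its calls were false. Far more genes were called in the real data, so these shares cannot be carried over to the calls given here.

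The members and the gene lists were chosen with earlier results of these data known, so lists are described by counts and medians and not tested. Genes named in the text are *il11a*, the 10 largest rises and falls, and the 8 largest gains and losses in mean TPM. In each list they are up to 3 members that rose most, up to 3 that fell most and the most abundant one. The 10 largest rises and falls were taken among genes with adjusted p under 0.05 and a fold over 4. Their groups also had to be without overlap, with a mean of at least 5 CPM in the higher group. List members that rose or fell most met the same conditions without the fold limit. Gains and losses in mean TPM were taken among genes with adjusted p under 0.05. Others are said to be named after their values were seen or are named only as an overlapping gene or paralogue. Alternatives were DESeq2 size factors, upper-quartile factors, library totals (added after seeing the data), DESeq2 1.42.0, limma 3.58.1 with voom and quality weights, other count filters, no robust dispersion, a replicate block and each library left out. The 7-month libraries were not used here, and promoter motifs were not analysed here.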

Additional observations from a re-analysis of the deposited data

How the results depend on the processing

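Class medians in this part are relative to the median of all genes under the same setting. Cytosolic chaperones here are the HSP70, HSP90 and co-chaperone list. DESeq2 size factors, upper-quartile factors, DESeq2 itself, limma-voom and a fit without robust dispersion kept the numbers of genes higher and lower, with and without the 4-fold limit, within 1.5 times of the main values. Scaling by library totals, an alternative added after seeing the data, gave 7407 genes higher, 1538 lower and 156 lower by 4-fold, and 1062 list members higher and 286 lower (684 and 505 in the main analysis). With it, members called higher numbered 43 large subunit ribosomal proteins (main value 22), 30 small subunit ribosomal proteins (main value 15), 30 regulatory proteasome genes (main value 10) and 28 actin regulators (main value 17), and members called lower numbered 7 collagens (main value 11), 7 endothelial markers (main value 13), 11 of the large mitochondrial ribosomal subunit (main value 32), 3 of the small mitochondrial ribosomal subunit (main value 20), 9 cytosolic chaperones (main value 18), 12 genes of complexes II to IV (main value 23), 8 genes of complex V (main value 17), 9 glycolytic enzymes (main value 16), 9 clock genes (main value 15) and 10 heart transcription factors (main value 18).

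A minimum of 10 counts in every library removes genes that are near 0 in 1 group, and it left 488 genes higher and 143 lower by 4-fold. Class medians with it were 0.47 for acute phase genes (main value 0.82), 1.27 for the C3 and alternative group (main value 0.17), 0.77 for neutrophil markers (main value 1.25), 0.70 for B cell genes (main value 2.78), 0.89 for chemokine receptors (main value 1.14), 0.46 for interferon effectors (main value 0.88), 0.24 for purine genes (main value 0.13) and 0.40 for tubulins and intermediate filaments (main value 0.28). With no filter, class medians were 0.18 for acute phase genes (main value 0.82), 2.52 for complement regulators (main value 2.67), 1.15 for neutrophil markers (main value 1.25), 1.15 for CC chemokines (main value 1.26), -0.33 for collagens (main value -0.12), -0.0017 for the provisional matrix (main value 0.27), 0.055 for ADAM and ADAMTS proteases (main value 0.29), -0.52 for vascular factors (main value -0.45), -0.27 for the TGF-beta family (main value -0.11), 0.26 for purine genes (main value 0.13), 0.47 for pyrimidine and deoxynucleotide genes (main value 0.44), -0.11 for autophagy genes (main value -0.14) and 0.42 for tubulins and intermediate filaments (main value 0.28). With limma-voom, class medians were 0.14 for matricellular genes (main value 0.0035), -0.21 for tyrosine kinase ligands (main value -0.33) and -0.38 for WNT, Notch and related genes (main value -0.50).

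Leaving out each library in turn gave 3060 to 3560 genes higher and 2303 to 2919 lower. Members called higher ranged over 6 to 9 CC chemokines, 8 to 24 large subunit ribosomal proteins, 5 to 15 small subunit ribosomal proteins and 5 to 10 regulatory proteasome genes, and members called lower over 7 to 9 collagens, 9 to 14 clock genes, 2 to 11 red cell genes and 11 to 18 heart transcription factors. Class medians ranged over 0.55 to 1.04 for acute phase genes, 2.25 to 2.53 for the classical and lectin pathways, -0.24 to 1.00 for the C3 and alternative group, 2.30 to 2.77 for complement regulators, 1.09 to 1.60 for neutrophil markers, 2.18 to 2.98 for B cell genes, 0.70 to 0.92 for T and NK cell genes, 1.1 to 1.46 for CC chemokines, 0.98 to 1.44 for chemokine receptors, 1.09 to 1.27 for cytokine receptors, 0.42 to 0.95 for interferon effectors, 1.19 to 1.46 for class II presentation and -0.33 to -0.065 for collagens. They further ranged over 0.017 to 0.44 for the provisional matrix, -0.084 to 0.16 for matricellular genes, 0.14 to 0.32 for ADAM and ADAMTS proteases, -0.26 to 0.20 for epicardial markers, -0.46 to -0.22 for endothelial markers, -0.55 to -0.32 for vascular factors, -0.43 to -0.17 for tyrosine kinase ligands, -0.21 to -0.015 for the TGF-beta family, -0.57 to -0.28 for WNT, Notch and related genes, -0.45 to -0.34 for the small mitochondrial ribosomal subunit, 0.25 to 0.37 for the proteasome core, 0.39 to 0.50 for ER translocation and glycosylation and 0.083 to 0.20 for vesicle transport genes. The remaining ranges were -0.47 to -0.33 for cytosolic chaperones, 0.056 to 0.38 for purine genes, 0.43 to 0.50 for pyrimidine and deoxynucleotide genes, -0.77 to -0.64 for complex I, -0.78 to -0.62 for the TCA cycle, -0.77 to -0.64 for fatty acid oxidation, -0.40 to -0.22 for glucose transporters and regulators, -0.53 to -0.25 for clock genes, -0.18 to -0.093 for autophagy genes, -0.31 to -0.14 for heart transcription factors, 0.15 to 0.26 for actin regulators and 0.19 to 0.34 for tubulins and intermediate filaments. The median of the C3 and alternative group, of matricellular genes and of epicardial markers thus took either sign.

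The replicate numbers do not pair the samples: deviations of same-numbered libraries from their group means correlated at 0.011, -0.034 and 0.137 over genes. A replicate block gave 3277 genes higher and 2770 lower, with 6 CC chemokines (main value 10) and 5 regulatory proteasome genes (main value 10) called higher, and a median of -0.34 for WNT, Notch and related genes (main value -0.50). With the block *tcf21* was not called (edgeR adjusted p = 0.0553).

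With 61691132 or more assigned fragments in each library, depth limits mainly genes near 0 counts, and 3 pooled samples per group limit every test. Of the 172 genes described, 163 kept their side of the threshold, and where called their direction, under every alternative that tested them. No called gene reversed, and 5 genes that were not called took either sign. The causes of these shifts were not tested.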

Other observations

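Genes that handle the cell's DNA and RNA were more often higher than lower. Of 68 tested chromatin genes 22 were higher and 7 lower (median log2 fold change 0.17), and of 52 nuclear transport genes 20 were higher and 4 lower (median 0.19), beside 20.2% and 17.1% of all genes. The importin *kpna2*, which carries proteins into the nucleus, had 30.5, 56.3 and 50.7 CPM in *il11a*OE hearts, against 1.32, 1.61 and 1.12 CPM in control hearts (log2 fold change 5.08 ± 0.29 SE, edgeR adjusted p = 0.000123). The chromatin assembly factor subunits *chaf1a* and *chaf1b*, which act in DNA replication, rose by 2.79 and 3.87, and the nucleosome-binding protein *hmgn2* had 241, 250.4 and 231 CPM, against 76.9, 70.31 and 66.7 CPM (log2 fold change 1.75 ± 0.087 SE, edgeR adjusted p = 6.95e-05). In the other direction the histone demethylase *kdm6ba* fell to 91.1, 120.4 and 65.4 CPM, against 204, 226 and 209.7 CPM (log2 fold change -1.21 ± 0.21 SE, edgeR adjusted p = 0.00612). Of 69 genes of splicing and RNA export 19 were higher and 10 lower (median 0.044), with the spliceosome subunits parted, as *sf3b1* stood at 296, 294 and 298 CPM, against 436, 418 and 446 CPM (log2 fold change -0.55 ± 0.069 SE, edgeR adjusted p = 0.00157), and *sf3b3* rose by 0.60.

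The p53 and apoptosis list held 10 higher and 11 lower of 32 genes (median -0.0012), or 14 higher and 4 lower with library totals as scaling. The executioner caspase *casp3a* had 36.8, 33.21 and 37 CPM in *il11a*OE hearts, against 12.7, 11.55 and 13.2 CPM in control hearts (log2 fold change 1.51 ± 0.086 SE, edgeR adjusted p = 9.99e-05), while its paralogue *casp3b* and the p53 target *cdkn1a*, a cell cycle inhibitor, were lower at -0.76 and -0.996 on the log2 scale. Ion channels moved in both directions, with shares close to the 20.2% of all genes called higher and 17.1% called lower. Of 22 sodium, chloride, pump and junction genes 5 were higher and 5 lower (median 0.022), or 10 and 3 with library totals as scaling. Of 14 potassium channels 3 were higher and 2 lower (median 0.22), with *kcnh6a*, a channel of the repolarizing current in the zebrafish heart, at 1972, 2244 and 1913 CPM, against 1280.5, 1446 and 1409.8 CPM (log2 fold change 0.57 ± 0.095 SE, edgeR adjusted p = 0.00461). The sodium channel subunit *scn4ba* fell to 49.7, 61 and 52 CPM, against 114, 100.3 and 112 CPM (log2 fold change -1.001 ± 0.11 SE, edgeR adjusted p = 0.000841). Of 27 sterol synthesis genes 1 was higher and 2 were lower (median -0.22), so this pathway showed few calls at either end. With library totals as scaling the split turned to 5 higher and 1 lower (median 0.11).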
